A study of Homo sapiens with 6 samples.

Results

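The genes described here are 48 symbols of the G2/M and mitosis programme, taken as a fixed list, and the probe sets annotated to them on the array. Of these, 39 were named on the array, each by 1 probe set, out of 14884 genes named there, and all 39 passed the filter on low signal that 8620 genes passed. UBE2C, TPX2, NUF2, TACC3, CENPE, CENPF, NCAPD2, DLGAP5 and ANLN were not analysed here. The 6 arrays were whole-transcript Affymetrix arrays of RNA from established human lines of ovarian cancer, namely ES-2, OVCAR-3, and SKOV-3. For every line 1 array came from cells transfected with miR-135a-3p and 1 from cells transfected with miR-blank, the control. The question of the design is what the microRNA does to transcript levels. The lines are the replicates (n = 3), and nothing in the labels says that arrays of a line came from separate cultures. Each line is 1 established cancer line in culture, and the sources used here do not give the form, dose or time of the transfection. Values are RMA log2 signals, and differences are miR-135a-3p minus miR-blank on the log2 scale.

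Cells enter mitosis when the kinase CDK1, bound to cyclin B, becomes active, and they leave it when the anaphase-promoting complex marks cyclin B for destruction. Most genes of this programme are silent in G1, are induced as cells pass from S phase to G2, and peak in mitosis. The induction runs through the MuvB core with B-MYB and FOXM1, and the repression in resting cells through the DREAM complex, which binds a short promoter element called the cell cycle genes homology region (CHR), often near CCAAT boxes bound by NF-Y. In a bulk sample, fewer cells in G2 or mitosis and less of a transcript in each such cell cannot be told apart.

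The transfected microRNA is the 3p arm of the hairpin gene MIR135A1. Its sequence is shown, from RefSeq on GRCh38.p14 (chr3:52294232-52294253, minus strand), because it defines the treatment, with the seed, bases 2 to 8, in capitals.
hsa-miR-135a-3p: uAUAGGGAuuggagccguggcg
The signal of MIR135A1 was 12.57, 12.20 and 11.58 after miR-135a-3p and 1.75, 2.26 and 2.07 after miR-blank (ES-2 first, OVCAR-3 next and SKOV-3 last, as in all values given by line), so the arrays followed their transfection labels. The cell line labels were not tested.

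Of 8 epithelial and ovarian markers, 6 were named on the array, and they gave a mixed picture. KRT18 read 9.36 to 10.47 on the 6 arrays, its partner KRT8 5.29 to 6.75, KRT7 3.82 to 6.75 and WT1 5.59 to 7.15. KRT18 was named by 2 probe sets, and its values are those of the brighter one. Whether that probe set reads KRT18 alone was not tested, so its values are uncertain. EPCAM read 3.78 to 4.32, near the array medians of 4.16 to 4.23. PAX8 read 8.12 and 8.80 in SKOV-3 and 4.12 to 4.80 in the other lines. In SKOV-3 these markers differed in both directions, KRT18 by 0.59, KRT8 by 0.62, WT1 by 1.005, EPCAM by −0.33, PAX8 by −0.68 and KRT7 by −1.53. Of the markers of other cell types, 2 of 6 leukocyte, 2 of 4 endothelial and 2 of 5 fibroblast genes were named on the array. The log2 of the summed leukocyte signals, carried by CD68, ran from 7.64 to 10.27 after miR-135a-3p and from 7.89 to 10.44 after miR-blank. Within SKOV-3 it was 10.27 after miR-135a-3p and 8.16 after miR-blank. The summed fibroblast signals ran from 3.48 to 4.34 after miR-135a-3p and from 3.46 to 6.13 after miR-blank, and LUM in SKOV-3 read 2.84 after miR-135a-3p and 6.05 after miR-blank, while DCN read 2.02 and 1.89. The endothelial sums ran from 5.15 to 5.30 after miR-135a-3p and from 5.11 to 5.42 after miR-blank. The part of these markers in the SKOV-3 values below was not tested. The SD of the differences over all genes tested was 0.30 for ES-2, 0.30 for OVCAR-3 and 0.48 for SKOV-3.

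Many promoters of the list share letters that its choice by symbol did not use. RefSeq start sites on GRCh38.p14 matched 34 of the 39 genes, and the 300 bases around each start (250 before, 50 after) were searched on both strands for the CHR letters TTTGAA and for the box CCAAT. The CHR letters were present in 24 of the 34 genes (70.6%), against 18.2% of all 27305 genes with such a window. They began within 50 bases before the start in 15 of them (44.1%), against 3.26% of all genes. CCAAT was present in 28 (82.4%), against 39.7%. Both motifs were present in 61.8%, against 7.26%, and they overlapped in 2 of the genes. Among 32 matched G1/S genes, TTTGAA was present in 4 (12.5%) and CCAAT in 24 (75%). The other mitosis genes had TTTGAA in 31 of 50 (62%). A match describes letters in a window and is not a bound site. No other spelling of the CHR was searched, so a window without TTTGAA is not shown to lack a CHR.

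The following windows, from 150 bases before to 50 after the start, are shown because these genes carry the motifs described above or the differences described next. Capitals mark TTTGAA and CCAAT on either strand.
CCNB2 (chr15:59104996-59105195, plus strand): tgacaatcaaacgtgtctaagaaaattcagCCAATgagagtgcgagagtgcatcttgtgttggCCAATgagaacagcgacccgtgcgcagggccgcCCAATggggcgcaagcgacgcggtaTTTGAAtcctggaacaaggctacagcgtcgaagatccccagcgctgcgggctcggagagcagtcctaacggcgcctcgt
PLK1 (chr16:23678739-23678938, plus strand): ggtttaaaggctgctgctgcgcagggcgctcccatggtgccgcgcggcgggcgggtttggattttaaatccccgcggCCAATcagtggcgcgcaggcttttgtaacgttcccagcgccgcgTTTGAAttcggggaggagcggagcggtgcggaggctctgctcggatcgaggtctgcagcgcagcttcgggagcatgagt
CDC20 (chr1:43358831-43359030, plus strand): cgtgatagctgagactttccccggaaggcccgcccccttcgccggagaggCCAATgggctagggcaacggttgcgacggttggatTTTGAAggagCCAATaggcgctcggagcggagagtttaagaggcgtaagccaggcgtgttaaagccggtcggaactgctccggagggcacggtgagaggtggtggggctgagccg
KIF20B (chr10:89701440-89701639, plus strand): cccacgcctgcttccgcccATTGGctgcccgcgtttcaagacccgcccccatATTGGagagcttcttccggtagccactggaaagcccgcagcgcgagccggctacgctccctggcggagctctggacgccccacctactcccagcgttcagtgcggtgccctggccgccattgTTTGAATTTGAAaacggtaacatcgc
CKAP2L (chr2:112764560-112764759, minus strand): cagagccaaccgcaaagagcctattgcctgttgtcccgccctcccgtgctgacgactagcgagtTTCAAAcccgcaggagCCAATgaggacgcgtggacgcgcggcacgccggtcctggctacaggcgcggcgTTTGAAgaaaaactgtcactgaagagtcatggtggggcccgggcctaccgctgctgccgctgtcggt
HMMR (chr5:163460482-163460681, plus strand): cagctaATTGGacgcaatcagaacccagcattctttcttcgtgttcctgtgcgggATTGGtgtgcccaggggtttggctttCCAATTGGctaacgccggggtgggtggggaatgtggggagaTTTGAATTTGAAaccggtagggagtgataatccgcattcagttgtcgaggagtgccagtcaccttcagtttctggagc
NEK2 (chr1:211675572-211675771, minus strand): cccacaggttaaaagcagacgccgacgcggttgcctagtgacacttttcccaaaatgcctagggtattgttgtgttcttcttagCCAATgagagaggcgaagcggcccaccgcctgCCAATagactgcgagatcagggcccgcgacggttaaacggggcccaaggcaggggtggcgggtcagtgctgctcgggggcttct
In CCNB2, the cyclin B2 gene, CCAAT boxes begin 120, 87 and 54 bases before the start, spaced by 33 bases, and TTTGAA begins 29 bases before it. PLK1 has 1 CCAAT box 73 bases and TTTGAA 29 bases before the start. HMMR holds TTTGAA as a direct repeat 28 and 22 bases before the start, and KIF20B holds the same repeat 24 and 30 bases after it. CDC20 has TTTGAA 65 bases before the start, between CCAAT boxes at 100 and 55 bases, and CKAP2L has it 86 and 17 bases before. NEK2 has CCAAT boxes 66 and 34 bases before the start and no TTTGAA.

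After miR-135a-3p the G2/M genes as a list read slightly higher in ES-2 and in OVCAR-3, and lower in SKOV-3. Their median was 0.07 for ES-2, 0.10 for OVCAR-3 and −0.23 for SKOV-3, against medians over all genes tested of −0.0057, −0.05 and 0.02. In ES-2, 27 of 39 members read higher (69.2%, against 48.8% of all genes), and in OVCAR-3 also 27 (69.2%, against 40.5%). In ES-2 12 members read lower, against 51.1% of all genes, and in OVCAR-3 12, against 59.4%. The OVCAR-3 split depended on the scaling: 32 members read higher and 7 lower after quantile normalization, and 33 higher and 6 lower after cyclic loess. The shares of all genes under these scalings were not counted, so these splits have no background. In SKOV-3, 27 read lower (69.2%, against 47.8%) and 12 higher (30.8%, against 52.2%). Among the 31 members with a mean signal of at least 8, the shares were 67.7% higher in ES-2, 67.7% higher in OVCAR-3 and 64.5% lower in SKOV-3, against 49.3%, 33.5% and 42.3% of 2012 equally bright genes. The SKOV-3 median of these brighter members was −0.16.

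limma, with the cell line as a block and Benjamini-Hochberg adjustment over all 8620 genes, called 0 of the 39 genes between the transfections, against a background of 0.0116%, which is MIR135A1 alone. At an unadjusted p under 0.05 there were 0 members, against 2.91% of all genes. The lowest adjusted p of a member was 0.999. The 95% interval of a member's mean difference reached a median of 0.36 to either side. Each single line has 1 array per transfection, and its differences have no replicate check. Most of them were small. A difference of at least 1.25-fold, 0.322 on the log2 scale, was reached upward by 2 members in ES-2 (5.13%, against 7.8% of all genes) and by 5 in OVCAR-3 (12.8%, against 6.79%). Downward it was reached by 1 member in ES-2, CKAP2, against 10.1% of all genes, and by 0 in OVCAR-3, against 13%. In SKOV-3 it was reached downward by 11 (28.2%, against 17.6%) and upward by 3 (7.69%, against 20.8%). KIF20B in SKOV-3 was the 1 member past 2-fold there, against 4% of all genes, and 0 members passed it in ES-2 or in OVCAR-3, against 0.673% of all genes in each.

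**Figure D1:**
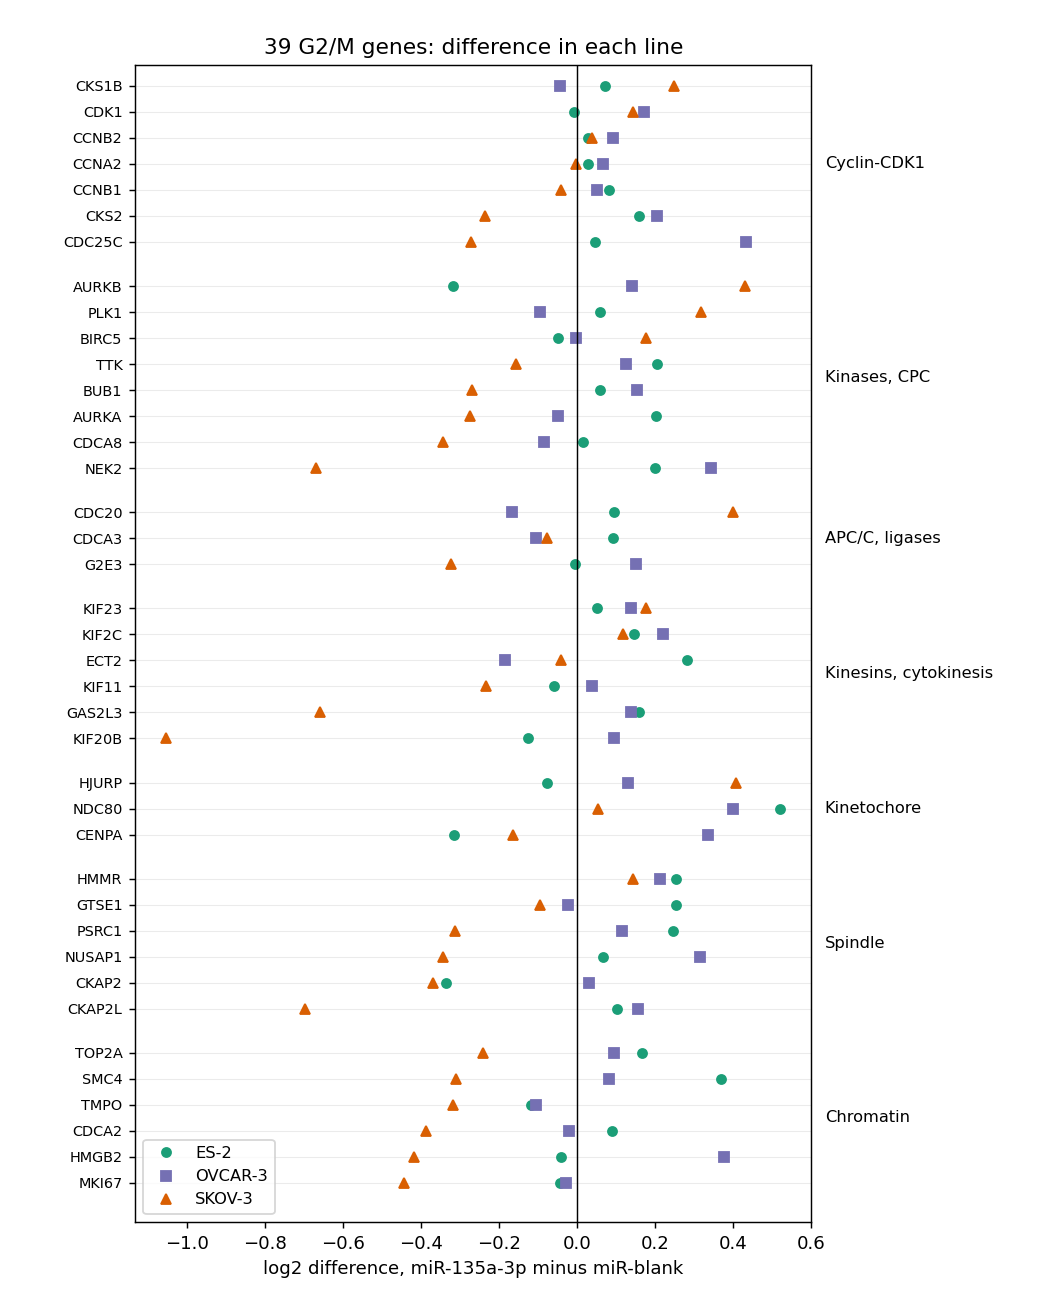
Log2 difference (miR-135a-3p minus miR-blank, x axis) of each of the 39 G2/M genes in ES-2 (circles), OVCAR-3 (squares) and SKOV-3 (triangles), 1 pair of arrays per point, grouped by role (CPC is the chromosomal passenger complex) and sorted by the SKOV-3 value. Of the SKOV-3 triangles 27 lie left of 0, KIF20B farthest at −1.05, while 27 ES-2 circles and 27 OVCAR-3 squares lie right of it.

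**Figure D2:**
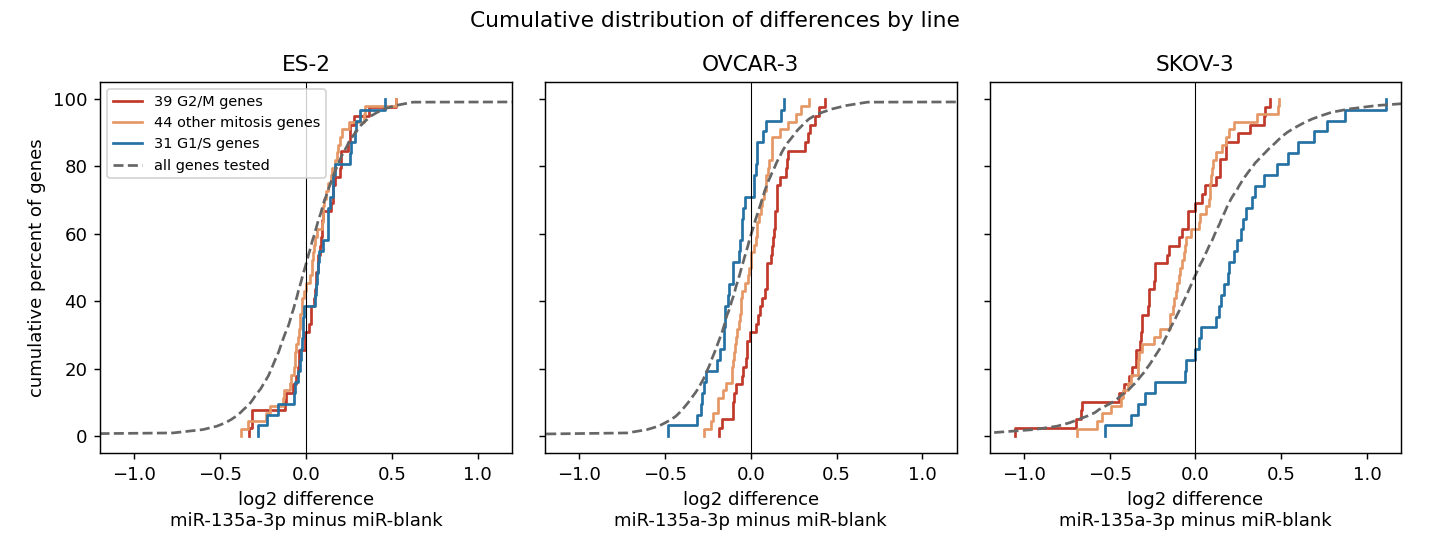
Cumulative percent of genes (y axis) against the log2 difference (x axis) in each line for the 39 G2/M genes, 44 other mitosis genes, 31 G1/S genes and all 8620 genes tested (dashed), with the axis limited to 1.2 on either side. In SKOV-3 the G2/M curve lies left of the dashed curve over most of its range, with a median of −0.23, and the G1/S curve to the right with a median of 0.20; in OVCAR-3 their order is the opposite.

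The core of the mitotic switch differed little between the transfections. CDK1, the mitotic kinase, read 8.64, 8.20 and 8.44 after miR-135a-3p and 8.64, 8.02 and 8.30 after miR-blank. CCNB1, cyclin B1, read 9.47, 9.43 and 9.22 after miR-135a-3p, against 9.39, 9.37 and 9.26 after miR-blank. The differences of CCNB1, CCNB2 and CCNA2, cyclin A2, all lay between −0.04 and 0.09 in the 3 lines. In this group the larger SKOV-3 values belonged to the CDK1 activator phosphatase CDC25C and to the CDK-binding subunits. CDC25C read 7.22, 7.85 and 7.18 after miR-135a-3p and 7.18, 7.41 and 7.46 after miR-blank, a difference of 0.05, 0.43 and −0.27. CKS2, a small subunit that binds CDK1, read 10.50, 10.29 and 10.41 after miR-135a-3p and 10.34, 10.08 and 10.65 after miR-blank, a difference of 0.16, 0.20 and −0.24. CKS1B, its paralog, read 7.20, 7.31 and 7.14 after miR-135a-3p and 7.12, 7.35 and 6.89 after miR-blank, a difference of 0.07, −0.04 and 0.25. CKS1B has 7 pseudogene loci in RefSeq, so its probe set may read copies, and its values are uncertain. CKS1B and CKS2 thus had opposite signs in OVCAR-3, and in SKOV-3 as well.

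Among the mitotic kinases, NEK2, a centrosome kinase that acts in centrosome separation, differed most in SKOV-3. NEK2 read 8.07, 8.32 and 7.42 after miR-135a-3p and 7.87, 7.97 and 8.09 after miR-blank. It thus differed by 0.20, 0.34 and −0.67. The SKOV-3 array after miR-135a-3p gave the lowest of the 6 values. NEK2 and AURKA have 4 and 2 pseudogene loci in RefSeq, so their values too are uncertain; 11 other members have 1 such locus each. AURKB, the catalytic subunit of the chromosomal passenger complex, went the other way in that line. AURKB read 9.65, 9.59 and 9.85 after miR-135a-3p and 9.97, 9.45 and 9.41 after miR-blank, a difference of −0.32, 0.14 and 0.43. Its partners in the complex did not share one direction in SKOV-3. CDCA8, which encodes borealin, read 9.29, 9.23 and 9.08 after miR-135a-3p and 9.27, 9.32 and 9.43 after miR-blank, a difference of 0.02, −0.09 and −0.35. BIRC5, which encodes survivin, differed by −0.05, −0.0034 and 0.18. PLK1, a kinase active from mitotic entry to cytokinesis, had the highest mean level of the list at 11.09 and differed by 0.06, −0.10 and 0.32. The spindle checkpoint kinases BUB1 and TTK differed by −0.27 and −0.16 in SKOV-3, and AURKA, the centrosomal Aurora kinase, by −0.27. In ES-2 all of BUB1, TTK and AURKA were above 0, with differences of 0.06 to 0.20.

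CDC20, the activator of the anaphase-promoting complex, read 11.05, 10.42 and 11.14 after miR-135a-3p and 10.96, 10.59 and 10.74 after miR-blank. The difference was 0.09, −0.17 and 0.40. G2E3, a ubiquitin ligase named for its G2/M expression, read 8.41, 8.69 and 8.27 after miR-135a-3p and 8.41, 8.54 and 8.59 after miR-blank, a difference of −0.0042, 0.15 and −0.32. CDCA3, which promotes mitotic entry through degradation of WEE1, read 6.69, 6.45 and 6.38 after miR-135a-3p and 6.60, 6.56 and 6.46 after miR-blank, a difference of 0.09, −0.11 and −0.08. CDC20 and G2E3 thus had opposite signs in OVCAR-3 and again in SKOV-3.

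The kinesin KIF20B, a plus-end motor required for the completion of cytokinesis, had the largest difference of any member. KIF20B read 9.48, 9.19 and 7.77 after miR-135a-3p and 9.61, 9.10 and 8.82 after miR-blank. Its differences were −0.13, 0.09 and −1.05, the last a fold of 0.481. GAS2L3, a cytoskeletal linker that binds actin and microtubules in cytokinesis, read 7.99, 7.93 and 7.40 after miR-135a-3p and 7.83, 7.79 and 8.06 after miR-blank. GAS2L3 thus differed by 0.16, 0.14 and −0.66, and its SKOV-3 array after miR-135a-3p was the lowest of the 6. KIF11, the motor that separates the spindle poles, read 10.44, 10.32 and 9.86 after miR-135a-3p and 10.50, 10.28 and 10.09 after miR-blank, a difference of −0.06, 0.04 and −0.23. KIF23, the kinesin of the centralspindlin complex, differed by 0.05, 0.14 and 0.18, and ECT2, the RhoA exchange factor it recruits, by 0.28, −0.19 and −0.04.

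At the centromere, NDC80, a microtubule-binding subunit of the outer kinetochore, read higher in all 3 lines. NDC80 read 9.33, 8.20 and 8.54 after miR-135a-3p and 8.81, 7.80 and 8.48 after miR-blank. Its differences were 0.52, 0.40 and 0.05, a mean of 0.32 ± 0.24 (SD, n = 3) with a limma adjusted p of 0.999. HJURP, the chaperone that deposits the centromeric histone, read 9.13, 8.65 and 8.52 after miR-135a-3p and 9.21, 8.52 and 8.11 after miR-blank, a difference of −0.08, 0.13 and 0.41. CENPA, that histone, read 8.04, 7.71 and 8.09 after miR-135a-3p and 8.36, 7.38 and 8.25 after miR-blank, a difference of −0.32, 0.33 and −0.17. The chaperone and its client thus had opposite signs in SKOV-3.

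Of the 6 spindle genes, 5 read lower in SKOV-3. CKAP2L, a spindle protein also called radmis, read 8.99, 8.56 and 8.60 after miR-135a-3p and 8.89, 8.41 and 9.30 after miR-blank, a difference of 0.10, 0.16 and −0.70. The SKOV-3 miR-blank array was the highest of the 6 for CKAP2L. CKAP2, its relative, read 8.74, 8.84 and 8.17 after miR-135a-3p and 9.07, 8.80 and 8.54 after miR-blank, a difference of −0.34, 0.03 and −0.37. NUSAP1, which bundles spindle microtubules, read 10.37, 10.12 and 9.91 after miR-135a-3p and 10.30, 9.80 and 10.26 after miR-blank, a difference of 0.07, 0.31 and −0.35. In both, SKOV-3 was lower after miR-135a-3p, while ES-2 was lower only for CKAP2. PSRC1 and GTSE1 differed by −0.31 and −0.10 in SKOV-3. The exception was HMMR, a hyaluronan receptor that acts at the spindle, which read higher in all 3 lines. HMMR read 9.95, 9.47 and 8.89 after miR-135a-3p and 9.70, 9.25 and 8.74 after miR-blank, so SKOV-3 gave the lowest value in each transfection.

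All 6 chromatin genes read lower in SKOV-3, between −0.24 and −0.45, the narrowest spread of any role group there (SD 0.08 over the 6 genes). MKI67, the proliferation marker that coats mitotic chromosomes, read 10.41, 10.51 and 10.45 after miR-135a-3p and 10.45, 10.54 and 10.90 after miR-blank. Its differences were −0.04, −0.03 and −0.45, a mean of −0.17 ± 0.24 (SD, n = 3) with a limma adjusted p of 0.999. TMPO, which encodes the lamina-associated polypeptide LAP2, was the other member lower in all lines. TMPO read 8.87, 9.15 and 8.54 after miR-135a-3p and 8.99, 9.26 and 8.86 after miR-blank, a difference of −0.12, −0.11 and −0.32, and it has 2 pseudogene loci in RefSeq. Both MKI67 and TMPO differed most in SKOV-3. HMGB2, a DNA-bending protein, read 6.24, 6.70 and 5.75 after miR-135a-3p and 6.29, 6.33 and 6.16 after miR-blank, a difference of −0.04, 0.38 and −0.42. TOP2A, the topoisomerase that untangles sister chromatids, differed by 0.17, 0.10 and −0.24. SMC4, a condensin core subunit, differed by 0.37, 0.08 and −0.31. CDCA2, a phosphatase-targeting subunit on anaphase chromatin, read 8.09, 8.41 and 8.43 after miR-135a-3p and 8.001, 8.43 and 8.81 after miR-blank, a difference of 0.09, −0.02 and −0.39.

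**Figure D3:**
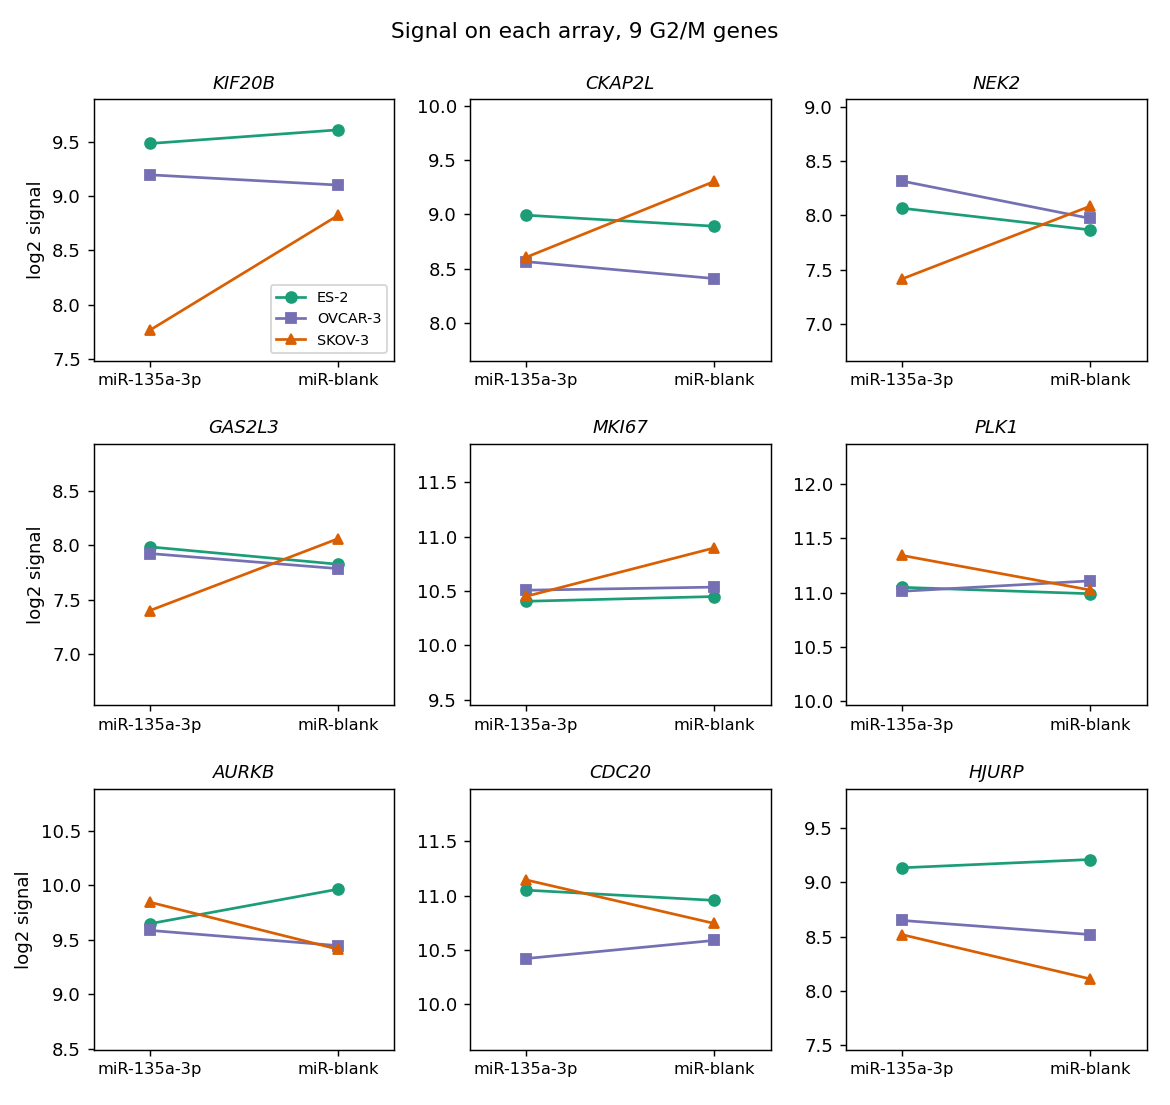
Log2 signal (y axis, each panel spanning 2.4 units) after miR-135a-3p and miR-blank for 9 G2/M genes, 1 point per array, with lines joining the arrays of a cell line. KIF20B, CKAP2L, NEK2, GAS2L3 and MKI67 are lower after miR-135a-3p in SKOV-3, PLK1, AURKB, CDC20 and HJURP are higher there; in the other lines the widest differences among these genes are 0.34 for NEK2 in OVCAR-3 and −0.32 for AURKB in ES-2.

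Members with the same sign in all 3 lines numbered 5 higher (12.8%, against 9.54% of all genes) and 2 lower (5.13%, against 13.4%). The count lower in all lines was 4 at equal array medians and 1 after cyclic loess, with no count over all genes under these scalings. Besides NDC80 the higher ones were HMMR (0.25, 0.21 and 0.14), KIF2C, a kinesin that depolymerises microtubules (0.15, 0.22 and 0.12), KIF23 and CCNB2. KIF2C read 9.60, 8.98 and 9.49 after miR-135a-3p and 9.45, 8.76 and 9.37 after miR-blank. HMMR had a mean of 0.20 ± 0.06 (SD, n = 3) and KIF2C of 0.16 ± 0.05 (SD, n = 3), each with a limma adjusted p of 0.999. Both ES-2 and OVCAR-3 read higher for 18 members (46.2%, against 21.8%), and 13 of these were lower in SKOV-3 (33.3%, against 12.3% of all genes). The difference between SKOV-3 and the other lines was not tested, because each line has 1 array per transfection.

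Members with and without the CHR letters overlapped in SKOV-3. The 24 genes with TTTGAA in the window had a SKOV-3 median of −0.13, ranged from −1.05 to 0.41, and 15 of them were lower. The 10 without it had a median of −0.29, ranged from −0.67 to 0.43, and 8 were lower. KIF20B and CKAP2L at the low end and CDC20 and PLK1 toward the high end carry TTTGAA, as the printed windows show. AURKB, the highest member in SKOV-3, and NEK2 and GAS2L3, next at the low end, do not carry it. In ES-2 and OVCAR-3 the medians with the motif were 0.06 and 0.09, and without it 0.07 and 0.13.

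**Figure D4:**
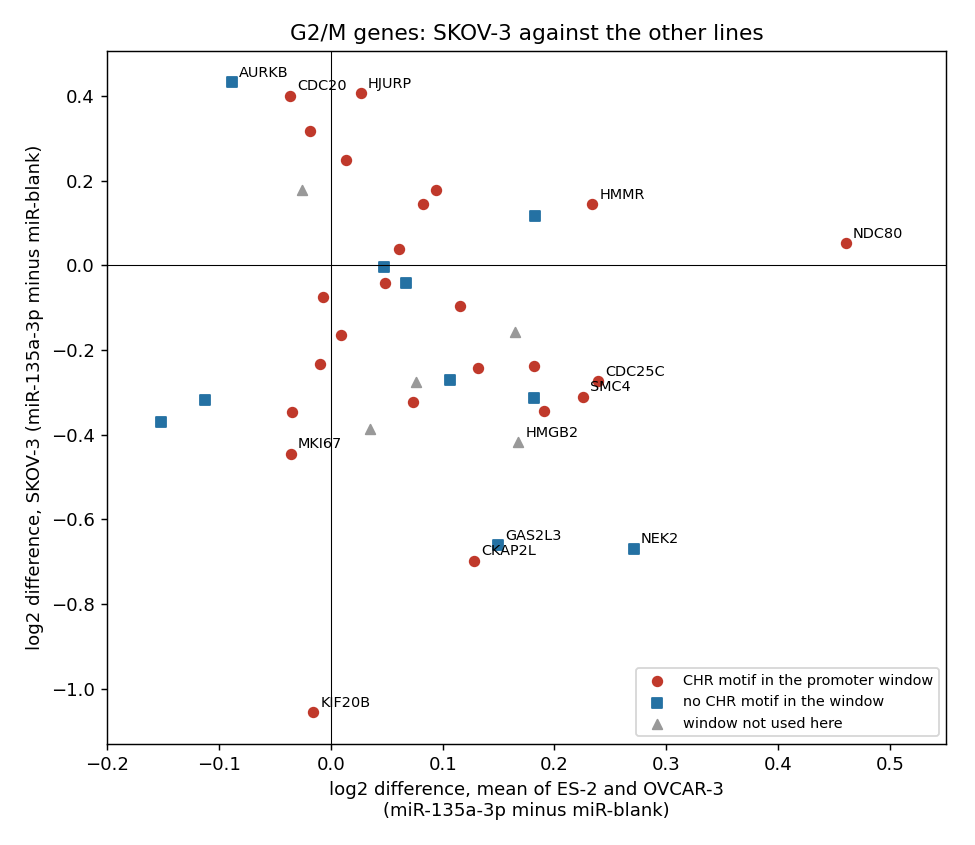
Log2 difference (miR-135a-3p minus miR-blank) in SKOV-3 (y axis) against the mean of ES-2 and OVCAR-3 (x axis) for the 39 G2/M genes. Marks show the presence of TTTGAA, the only CHR spelling searched, in the RefSeq promoter window. Circles with TTTGAA, squares without it and triangles with no window used lie in the same region, and 13 genes higher in both ES-2 and OVCAR-3 lie below 0 in SKOV-3.

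Few of the genes were called between the lines. Median signals of the 39 genes lay at 9.29, 8.98 and 8.60 after miR-135a-3p and at 9.19, 8.85 and 8.82 after miR-blank. For lines, limma took the transfection as a block, with 2 arrays per line, and a call needed an adjusted p under 0.05 and a 2-fold difference. The 2 arrays of a line are 1 per transfection. The p-values and intervals thus rest on how the transfection difference varied between lines, not on replicate cultures. Between ES-2 and OVCAR-3, 1 member was called (2.56%, against 16.5% of all genes), between ES-2 and SKOV-3, 2 were called (5.13%, against 12.1%), and between OVCAR-3 and SKOV-3, 0 were called (0%, against 14.6%). At an unadjusted p under 0.05, limma gave 12, 11 and 12 members for these pairs, against 40.7%, 36.3% and 38.6% of all genes. At an adjusted p under 0.05 with any fold, 3, 5 and 4 members passed (7.69%, 12.8% and 10.3%), against 29.2%, 23% and 25.6% of all genes. The median absolute difference between lines over the members was 0.29, 0.24 and 0.31, against 0.36, 0.33 and 0.35 over all genes. For the 31 members with a mean of at least 8 it was 0.36, 0.27 and 0.27, against 0.36, 0.34 and 0.35 of 2012 equally bright genes. Calls among these 31 were 1, 2 and 0. Of the 2012 genes, 123, 79 and 103 were called higher and 115, 97 and 128 lower for the same pairs.

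NDC80 was higher in ES-2 than OVCAR-3, with line means of 9.07 ± 0.37 in ES-2 and 8.002 ± 0.28 in OVCAR-3 (SD, n = 2 arrays each), and 8.51 in SKOV-3. The 2 arrays of a line differ in transfection, so this SD holds the transfection difference and is not a spread between replicate cultures. The ES-2 minus OVCAR-3 difference was 1.07 (95% interval 0.63 to 1.51, limma adjusted p 0.00682). Leaving out an array leaves its line with 1 array, which is assumed to vary like the other lines, so the p-values of such fits rest on the spread in those lines. Leaving out the ES-2 miR-135a-3p array gave 0.92 (limma adjusted p 0.071). Leaving out the OVCAR-3 array after miR-135a-3p or after miR-blank gave 1.13 (limma adjusted p 0.0643) and 1.01 (limma adjusted p 0.0825). HMMR was higher in ES-2 than SKOV-3, by 1.01 (95% interval 0.63 to 1.39, limma adjusted p 0.0069), with line means of 9.82, 9.36 and 8.81. The HMMR difference lost its call at equal array medians (0.97) and after quantile normalization (0.98), where it fell just under 2-fold. It also lost it without the ES-2 arrays after miR-135a-3p (0.97) or miR-blank (1.05, limma adjusted p 0.0515), and without the SKOV-3 array after miR-135a-3p (0.96).

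KIF20B was higher in ES-2 than SKOV-3, by 1.25 (95% interval 0.56 to 1.94, limma adjusted p 0.0253). Without the SKOV-3 array after miR-135a-3p the KIF20B difference was 0.73 and under 2-fold, without the SKOV-3 miR-blank array it was 1.77, and without the ES-2 array after miR-135a-3p it was 1.07 (limma adjusted p 0.115). BUB1 passed an adjusted p under 0.05 but not 2-fold, with the lowest line mean in SKOV-3, and ES-2 minus SKOV-3 was 0.96 (limma adjusted p 0.0132) and OVCAR-3 minus SKOV-3 was 0.86 (limma adjusted p 0.016). HJURP was higher in ES-2 than SKOV-3 by 0.86 and BIRC5 differed by −0.745. TOP2A was lower in OVCAR-3 than SKOV-3, with a difference of −0.75 (limma adjusted p 0.026). KIF2C was higher in ES-2 than OVCAR-3 by 0.65, with OVCAR-3 minus SKOV-3 at −0.56, and GTSE1 was lower in ES-2 than OVCAR-3, with −0.71. CDK1 missed the threshold between ES-2 and OVCAR-3, at 0.53 (95% interval 0.14 to 0.92). The lines did not differ detectably in CCNB1, whose ES-2 minus SKOV-3 interval ran from −0.19 to 0.57.

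**Figure D5:**
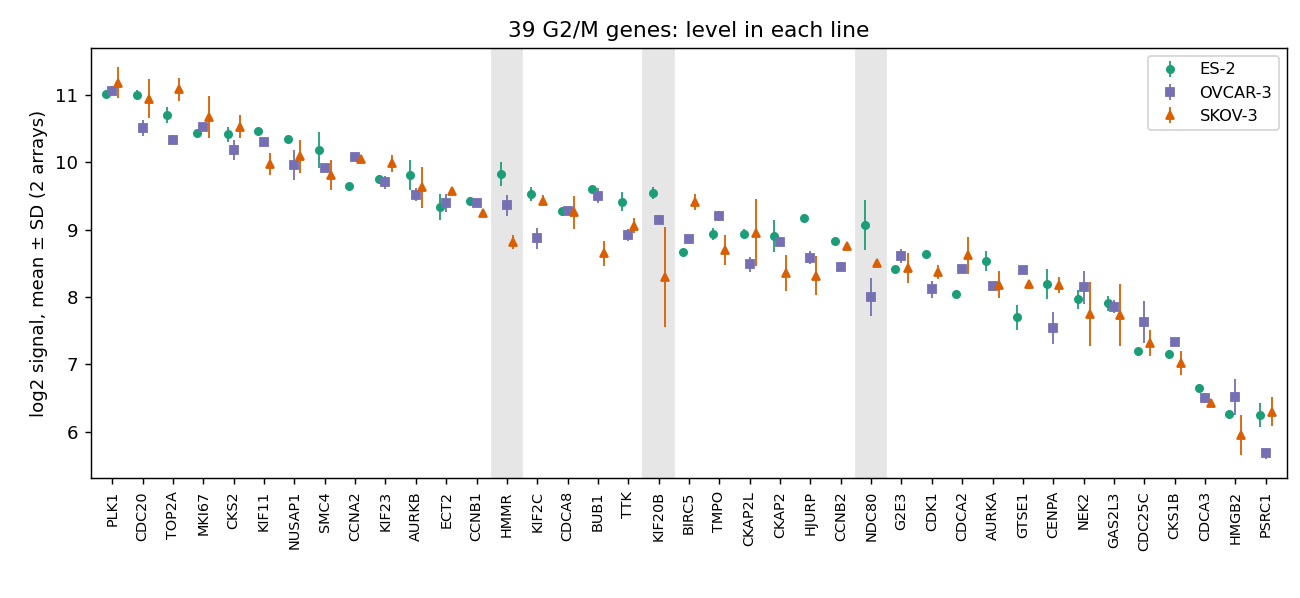
Log2 signal (y axis) of the 39 G2/M genes in ES-2 (circles), OVCAR-3 (squares) and SKOV-3 (triangles), as the mean ± SD of the 2 arrays of a line, ordered by mean level. Grey bands mark HMMR, KIF20B and NDC80, the genes called between lines; levels run from 6.08 for PSRC1 to 11.09 for PLK1.

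The other mitosis genes, a list of 59 of which 44 were tested, had medians of 0.04, −0.0030 and −0.08 by line. In SKOV-3, 27 of the 44 read lower (61.4%, against 47.8% of all genes). limma called 0 of the 44 between the transfections, with 1 of 44, SKA1, at an unadjusted p under 0.05, against 2.91% of all genes. SKA1 read higher in every line, by 0.52, 0.11 and 0.48. The 4 genes with the largest SKOV-3 differences were all lower there. The kinesin KIF18A, which aligns chromosomes, differed by −0.69 and the centromere protein CENPW by −0.58. FBXO5, the inhibitor EMI1 of the anaphase-promoting complex, differed by −0.55, and KIF20A, a cytokinesis kinesin, by −0.49. The largest rise in the list, at 0.49, was close in size to the fall of KIF20A and smaller than that of KIF18A. At least 1.25-fold lower in SKOV-3 were 11 of the 44 (25%, against 17.6% of all genes), and 3 were higher (6.82%, against 20.8%). In ES-2 and OVCAR-3 KIF18A differed by 0.34 and 0.06.

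The 31 tested G1/S genes, the programme that precedes G2/M in the cycle, lay on the other side in SKOV-3. Their medians were 0.07, −0.10 and 0.20 by line, and 23 read higher and 8 lower in SKOV-3 (74.2% higher, against 52.2% of all genes). The G1/S genes were bright, with a median level of 8.28, and bright genes also leaned upward in SKOV-3. Of 2012 genes with a mean of at least 8, 1160 read higher there, with a median of 0.07. At least 1.25-fold higher in SKOV-3 were 10 of the G1/S genes (32.3%, against 20.8% of all genes). The largest were the sister chromatid cohesion factor DSCC1 (1.11), the replication fork factor TIPIN (0.87), UHRF1, which maintains DNA methylation (0.77), and the ribonucleotide reductase subunit RRM2 (0.69). limma called 0 of the G1/S genes, with 0 at an unadjusted p under 0.05. CENPU stands on both the G1/S and the other mitosis list, and E2F8 on both the G1/S list and the list of regulators below.

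Of the regulators of the G2/M promoters, FOXM1 and MYBL2 were nearly level. FOXM1, the transcription factor that drives the programme, read 9.08, 9.08 and 9.22 after miR-135a-3p and 9.08, 9.18 and 9.10 after miR-blank. MYBL2, which encodes B-MYB, differed by −0.12, −0.14 and −0.06, and the MuvB subunits LIN9, LIN54 and LIN52 by 0.28, −0.19 and 0.05 in SKOV-3. LIN52 was low there, at 4.93 after miR-135a-3p and 4.88 after miR-blank. RBL2, the pocket protein p130 of DREAM, differed by −0.58 in SKOV-3, and the repressors E2F7 and E2F8 by 0.75 and −0.53. RBL1, another pocket protein, had the opposite sign to RBL2 in SKOV-3, with 0.19, −0.33 and 0.23 by line. limma called 0 of 9 regulators between the transfections, with 0 at an unadjusted p under 0.05. Some regulators were called between the lines. For ES-2 minus OVCAR-3, 2 of the 9 were called higher and 1 lower, against 16.5% of all genes called. The higher ones were E2F7, by 2.50 (limma adjusted p 0.00144), and RBL2, by 1.35, and the lower one was LIN54, with −1.08. For ES-2 minus SKOV-3, 1 was called, MYBL2, with −1.67 (limma adjusted p 0.00109), against 12.1% of all genes. For OVCAR-3 minus SKOV-3, 1 was called, E2F7, with −1.67, against 14.6%.

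Of the brakes on G2/M, 6 were tested. WEE1, the kinase that holds CDK1 inactive, read 6.86, 8.05 and 6.37 after miR-135a-3p and 6.97, 8.11 and 7.28 after miR-blank, so it differed by −0.11, −0.06 and −0.91. CCNG1, the p53 target cyclin G1, differed by 0.08, 0.07 and −1.12, and CCNG2 by 0.16, −0.28 and −0.73. SFN, the 14-3-3 sigma protein that retains CDK1 in the cytoplasm, differed by −0.51, −0.56 and 1.32, the opposite sign in SKOV-3. SFN read 5.08, 8.09 and 6.52 after miR-135a-3p and 5.58, 8.65 and 5.20 after miR-blank. Both ES-2 values and the SKOV-3 miR-blank value thus lay near 5, the lowest mean a tested gene could have, so those differences are uncertain. CHEK1, a checkpoint kinase, differed by 0.27, −0.02 and 0.53 and CHEK2 by −0.02, −0.02 and −0.37. limma called 0 of the 6 between the transfections, with 0 at an unadjusted p under 0.05.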

How the data were processed

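The deposited values are log2 signals of 53617 probe sets on 6 arrays. The tools RMA, Expression Console 1.4 by Affymetrix, and Transcriptome Analysis Console 3.0 appear without a stated role per the submitters' processing notes. RMA equalises array distributions, which removes a shift shared by most genes. Names came from the platform annotation, updated through the RefSeq gene table of GRCh38.p14 by Entrez identifier (16098 named, 14884 symbols), keeping per gene its probe set of highest mean. Genes with a mean of at least 5 were tested with limma 3.58.1 in R 4.3.3 (lmFit, eBayes, two-sided, adjusted over 8620 genes), blocking on cell line. Pairing follows from the shared cell line, and paired deviations from the group means over all probe sets correlated at 0.722, 0.717 and 0.592 (order as in the report). Line contrasts blocked on transfection, and their calls needed 2-fold besides an adjusted p under 0.05. The number of arrays limits the precision. On simulated data for 8620 genes, 200 were changed by the same amount in all 3 lines. The transfection fit recovered 75% of log2 changes of 1, with 9 false calls, and 98.5% of changes of 2, with 7 false calls. The largest mean difference of a member was −0.36, for KIF20B. Changes of that size, or of unlike sign between lines, were not simulated, so the recovery does not apply to the members.

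Every measured member may be named. Values on all arrays follow a rule: the 3 members per role with the largest SKOV-3 difference, the 3 per direction with the same sign in all lines, and those called between lines. Of the context lists, all regulators and brakes measured may be named, with 4 other mitosis and 4 G1/S genes by the largest SKOV-3 difference. SKA1, values of other genes and the promoters shown were chosen after values were seen, as were the 1.25-fold limit and the brightness limit of 8. The members and lists were chosen with earlier results of these data known. RefSeq promoter and microRNA sequences were read from tables of GRCh38.p14. Alternatives were: the fit without block; other filters (none, or 6); normalization by equal medians, by quantiles or by cyclic loess; an intensity trend; the mean over probe sets, and each line or array left out.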

Additional observations from a re-analysis of the deposited data

Results flagged for a closer look

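The differences between lines described here were not tested, because each line has 1 array per transfection, and they are given because their signs are opposite. The median difference of the 39 G2/M genes was 0.0675 for ES-2 and 0.0952 for OVCAR-3, and −0.234 for SKOV-3. The median of the 31 G1/S genes was 0.0726 in ES-2 and 0.197 in SKOV-3, and −0.102 in OVCAR-3. Opposite signs between OVCAR-3 and SKOV-3, each past 1.25-fold, were found for 2 of 39 G2/M genes (5.13%), a share near that of all genes (5.78%). Between ES-2 and OVCAR-3, and between ES-2 and SKOV-3, 0 members met this, against 1.64% and 4.48% of all genes. The 2 genes were NEK2, with −0.669 for SKOV-3 and 0.343 for OVCAR-3, and HMGB2, with −0.418 for SKOV-3 and 0.376 for OVCAR-3.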

How the results depend on the processing

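The signs of the G2/M medians in all 3 lines were kept under every alternative run, from 0.04 to 0.10 in ES-2, 0.06 to 0.15 in OVCAR-3 and −0.27 to −0.16 in SKOV-3. The all-gene median in ES-2 turned positive without a filter (0.0067) and after quantile normalization (0.0203). The count of G2/M genes lower in OVCAR-3 was 7 after quantile normalization and 6 after cyclic loess, against 12, and the count lower in all lines was 4 at equal array medians and 1 after cyclic loess, against 2. For these counts the shares of all genes under the same scalings were not counted. G2/M genes called between ES-2 and SKOV-3 were 1 at equal array medians and 1 after quantile normalization, against 2. Without the replicate block limma called 1 gene and 0 members, so the block changed no call. With each line left out in turn, the genes called between transfections ran from 1 to 4, the members at an unadjusted p under 0.05 from 0 to 1, those higher in all lines used from 8 to 18 and those lower from 3 to 8; without SKOV-3 the counts were 4, 1, 18 and 3, and without ES-2 or without OVCAR-3 they were 1, 0, 8 and 8, fewer lines having to share a sign. With each array left out, the members called ran from 0 to 1 for ES-2 minus OVCAR-3, from 0 to 3 for ES-2 minus SKOV-3 and from 0 to 2 for OVCAR-3 minus SKOV-3, and the genes called for OVCAR-3 minus SKOV-3 from 808 (without the OVCAR-3 miR-135a-3p array; 817 without its miR-blank array) to 1409. Without the SKOV-3 miR-blank array the members called were 3 for ES-2 minus SKOV-3 and 2 for OVCAR-3 minus SKOV-3. Where no cause is named, the cause was not tested. The restriction to genes with a mean of at least 8 and the same-sign counts without a line were chosen after the data were seen.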
